A study of Mus musculus with 11 samples.

Results

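Spleen dendritic cell preparations of mice with a mutant uromodulin were compared with those of wild type littermates for the GIMAP genes, a family of immune GTPases. The genes were taken as all rows of the deposited expression table whose symbol starts with Gimap, which gave 3 of 417 rows: Gimap6, Gimap7 and Gimap8. The C105F/+ group held 5 libraries (replicates 2 to 6) whose donors carried 1 edited uromodulin allele, a phenylalanine in place of a cysteine, made with Cas9 in C57BL/6J embryos (the labels write C105F and also C106F). The wild type group held 6 libraries (replicates 1 to 6) from +/+ littermates, and both groups were C57BL/6J mice aged 12 to 16 weeks. Uromodulin is made by kidney tubules, and the series concerns its mutant form, dendritic cells and kidney repair after injury, although no sample label names an injury. Collagenase was used to dissociate the spleens, and magnetic removal of other cells enriched the dendritic cells. Whether every library had an animal of its own, and how many edited founders gave rise to the line, is not stated in the labels, and p-values therefore measure only how far these libraries spread, which may be technical.

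GIMAP proteins (GTPases of the immunity-associated protein family) bind guanine nucleotides and sit on membranes inside the cell. They are best known from lymphocytes, where loss of Gimap5 in mice and rats shortens the life of T cells, and members of the family are also expressed by endothelial cells. Gimap6 takes part in autophagy through a partner of the GABARAP group, human GIMAP7 forms dimers that hydrolyse GTP and can act on a relative, and Gimap8 is the largest member, with repeated GTPase domains.

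The 3 genes lie in a single cluster on mouse chromosome 6, in which RefSeq (GRCm38.p6, the assembly of mm10) places 8 GIMAP genes within 123.7 kb. Gimap8 (Entrez 243374, plus strand) spans chr6:48647186-48660875 and opens the cluster, Gimap6 (Entrez 231931, minus strand) spans chr6:48701583-48708244, and Gimap7 (Entrez 231932, plus strand) spans chr6:48718621-48724636. Gimap6 and Gimap7 are neighbours, with 10.4 kb between them, whereas Gimap9 and Gimap4 lie between Gimap8 and Gimap6. Gimap1, Gimap3, Gimap4, Gimap5 and Gimap9 have no row and were not analysed here. In GENCODE M21 all 3 genes are protein coding, and Gimap7 lies within Gm28053, a longer protein coding gene model on the same strand. Of the 50-base stretches in the annotated transcripts, 1.39% of those of Gimap7 recur in Gm28053, 0.17% of those of Gimap6 recur in another gene on either strand, and 0 of 3699 of those of Gimap8 do so. Exact sharing with other GIMAP genes was thus not found, and the labels do not say how reads at Gm28053 were assigned.

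The start regions are printed so that the upstream letters of these neighbours can be compared, 250 bases before to 50 bases after each RefSeq start, 5′ to 3′ on the gene's strand (RefSeq, GRCm38.p6). Capitals mark matches on either strand to short motifs, which do not overlap. The core motif for ETS factors was searched as CGGAAG. The core motif for RUNX factors was searched as TGTGGT. The GC box, which SP family factors bind, was searched as GGGCGG. The box bound by the TATA-binding protein was searched as TATAAA. The windows are chr6:48708195-48708494 for Gimap6, chr6:48718371-48718670 for Gimap7 and chr6:48646984-48647283 for Gimap8.
Gimap6: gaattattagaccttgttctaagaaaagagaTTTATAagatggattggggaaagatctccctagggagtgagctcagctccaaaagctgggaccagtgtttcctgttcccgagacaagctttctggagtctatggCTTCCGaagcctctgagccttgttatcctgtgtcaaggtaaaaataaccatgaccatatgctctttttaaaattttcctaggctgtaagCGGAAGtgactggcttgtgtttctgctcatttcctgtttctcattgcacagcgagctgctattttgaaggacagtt
Gimap7: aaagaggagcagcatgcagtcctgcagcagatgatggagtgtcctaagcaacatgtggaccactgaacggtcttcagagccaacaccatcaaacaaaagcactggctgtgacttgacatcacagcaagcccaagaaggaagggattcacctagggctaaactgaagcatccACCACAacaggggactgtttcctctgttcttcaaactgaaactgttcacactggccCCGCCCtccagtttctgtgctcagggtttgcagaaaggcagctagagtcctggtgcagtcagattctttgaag
Gimap8: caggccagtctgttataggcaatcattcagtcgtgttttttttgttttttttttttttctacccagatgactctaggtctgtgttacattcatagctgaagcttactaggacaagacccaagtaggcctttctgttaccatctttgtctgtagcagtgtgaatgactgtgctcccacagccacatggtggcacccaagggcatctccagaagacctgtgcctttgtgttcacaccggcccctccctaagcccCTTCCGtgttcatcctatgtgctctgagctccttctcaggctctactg
The Gimap6 window holds the ETS letters at 2 places, beginning 115 and 26 bases before the start, and the TATA letters on the other strand 219 bases before it. Gimap8 holds the ETS letters on the other strand just after the start printed here. Its second RefSeq start, further downstream, has the same match 125 bases before it. Gimap7 holds the RUNX letters 79 bases and the GC box 23 bases before its start, both on the other strand. Among 32851 mouse windows of this length, 16.9% held the ETS letters, 16.8% the RUNX letters, 35.7% the GC box and 13.6% the TATA letters. A match is a description of the letters and not a binding site.

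The table is a selection by the authors. All rows differ by 2-fold or more in either direction, with unadjusted p-values up to 0.0493, so each GIMAP gene was kept for the difference described here and no p below is independent evidence. Relative depth, given by the size factors behind the deposited means, was lowest in wild type 1 (0.615) and highest in C105F/+ 2 (1.98), and a scaled count is a read count divided by that factor. Of 22 listed dendritic cell genes only Itgae and Pacsin1 have rows, so the identity of the cells could not be checked from defining markers. Itgae was low in wild type 4 (99.5 scaled counts), where the rest of its group had 460 to 896. C105F/+ 3 and 4 lay below C105F/+ 2, 5 and 6 in all 3 GIMAP genes. In bulk RNA, fewer cells of a type and less RNA per cell cannot be told apart.

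Gimap6 was the most abundant of the 3 GIMAP genes with rows and the only one that passed edgeR's test. In C105F/+ libraries 2 to 6 its scaled counts were 1553, 278, 503, 1243 and 1193. In wild type they ran from 209 to 493, with a median of 331. C105F/+ 2, 5 and 6 were far above every wild type library, C105F/+ 4 lay just above the wild type maximum, and C105F/+ 3 lay inside the wild type range, so the groups overlapped. The means were 954 ± 539 (SD, n = 5) and 335 ± 114 (SD, n = 6), a 2.85-fold difference. By edgeR's quasi-likelihood test the log2 fold change was 1.51 (SE 0.44, Benjamini-Hochberg adjusted p = 0.0287), and the exact two-sided permutation p on log2(scaled count + 1) was 0.039. In the authors' deposited table the log2 fold change was 1.51 with a standard error of 0.42 and an adjusted p of 0.0201. The call ended without C105F/+ 2 (edgeR adjusted p = 0.0617), without C105F/+ 5 (0.0681) or without C105F/+ 6 (0.0638). It also ended, with a smaller log2 fold change, when the libraries were scaled on the selected rows by TMM (0.44, edgeR adjusted p = 0.414) or DESeq2 size factors (0.60, adjusted p = 0.205).

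Gimap8 was higher on average but did not pass. Scaled counts were 369, 36.0, 50.1, 210 and 217 in C105F/+ 2 to 6. Wild type ran from 11.5 to 183, with a median of 38.2. C105F/+ 2, 5 and 6 exceeded every wild type library, while C105F/+ 3 and 4 were inside the wild type range, and wild type 4 (183) was 3.05 times the next wild type library (60.2 in wild type 1). The means were 176 ± 137 (SD, n = 5) and 58.4 ± 63.9 (SD, n = 6), a ratio of 3.02 with an edgeR log2 fold change of 1.60 (SE 0.73, adjusted p = 0.0538 and exact permutation p = 0.0823). The authors' deposited table gives an unadjusted p of 0.0315 and an adjusted p of 0.203. Without wild type 4 the ratio was 5.28 and the edgeR adjusted p 0.0096, and without C105F/+ 3 or 4 the adjusted p was 0.031 or 0.0481. Without C105F/+ 2 the log2 fold change was 1.13 (edgeR adjusted p = 0.158). Removing any other single library left the adjusted p above 0.05.

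Gimap7 had the fewest reads and the largest ratio. Read counts in C105F/+ 2 to 6 were 275, 29, 17, 90 and 95, which gave scaled counts of 139, 27.5, 18.5, 96.4 and 115. Wild type scaled counts ran from 0 to 60.7, with a median of 16.5. Wild type 1 and wild type 2 had no read, which allows up to 4.88 and 2.88 scaled counts (3 reads), and wild type 4 had 60.7 where the rest of its group had at most 19.6. C105F/+ 2, 5 and 6 were again above every wild type library and C105F/+ 3 and 4 within their range. The means were 79.3 ± 53.6 (SD, n = 5) and 18.9 ± 22.3 (SD, n = 6), a ratio of 4.20 with an edgeR log2 fold change of 2.06 (SE 0.94, adjusted p = 0.0535 and exact permutation p = 0.0368). In the authors' deposited table the adjusted p was 0.233. Without wild type 4 the ratio was 7.55 and the edgeR adjusted p 0.0153, and without C105F/+ 3 the adjusted p was 0.0435. Removing any other single library left the edgeR adjusted p above 0.05, up to 0.112 without C105F/+ 2.

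**Figure D1:**
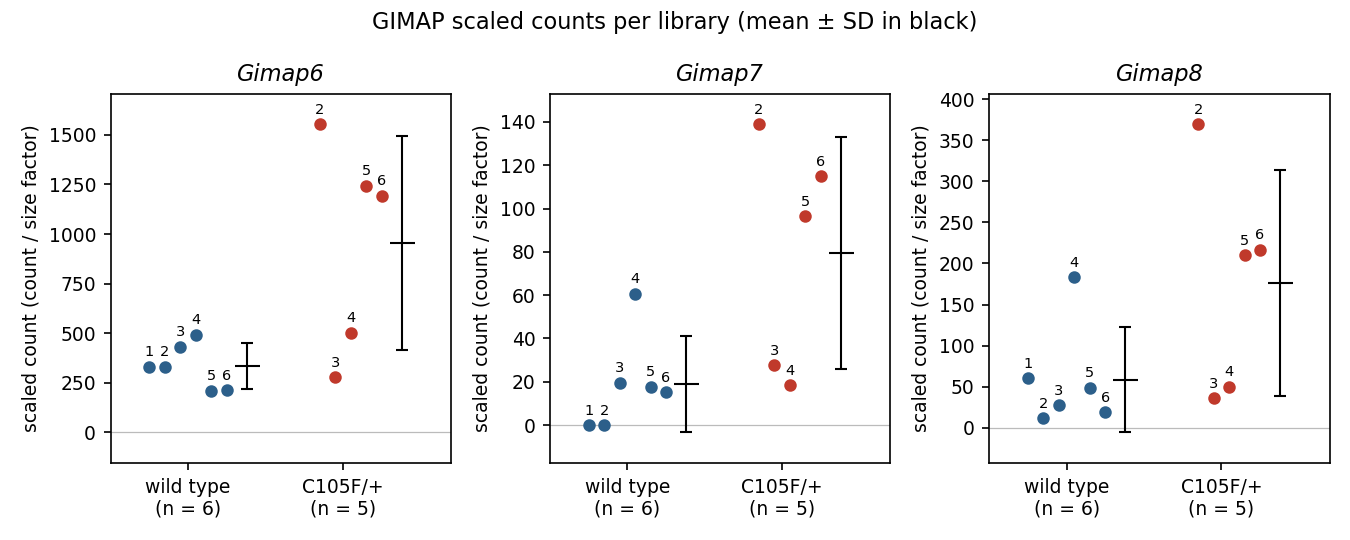
Scaled counts (read count over size factor, y axis) of Gimap6, Gimap7 and Gimap8 in each wild type (blue) and C105F/+ (red) library, with replicate numbers above the points and the mean ± SD in black. C105F/+ 2, 5 and 6 sit above all wild type libraries in each panel, C105F/+ 3 and 4 sit near the wild type range, and wild type 4 is the highest wild type library.

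All 3 genes passed edgeR's filter on low counts, and 1 of 3 had an edgeR adjusted p under 0.05, against 74.5% of the 321 rows tested. Rows called higher were 52.6% of them. By the authors' deposited adjusted p 1 of 3 passed, against 37.6% of the 295 rows that carry one, or 29.8% in the higher direction. By exact permutation 2 of 3 had a p under 0.05, against 67.6% of the 417 rows (45.6% in the higher direction), and 0 of 3 separated the groups without overlap, against 10.1% of rows that did so in the higher direction. The median log2 fold change was 1.60 for the GIMAP genes, 1.37 over the 210 rows with a positive fold change, and 1.12 over all 321 rows. These shares describe rows that had been kept for their difference.

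Per length, most of the summed level of these 3 genes was Gimap6, and the GIMAP genes without a row could not be compared. Its FPKM, a level scaled by transcript length and sequencing depth, was 20.6, 3.10, 6.15, 16.1 and 14.9 in C105F/+ 2 to 6 and ran from 2.44 to 6.05 in wild type. Gimap7 had 2.34, 0.39, 0.285, 1.58 and 1.82 FPKM in C105F/+ 2 to 6 and 0 to 0.939 in wild type. Gimap8 had 2.16, 0.176, 0.267, 1.20 and 1.19 FPKM in C105F/+ 2 to 6 and 0.0524 to 0.993 in wild type. Gimap6 was the highest of the 3 in 11 of 11 libraries, with 75.8% to 98.5% of their summed FPKM. Gimap7 lay above Gimap8 in 5 of 5 C105F/+ libraries and in 2 of 6 wild type libraries. Mean FPKM of Gimap7 and Gimap8 were 1.28 ± 0.907 and 0.999 ± 0.813 in C105F/+ (SD, n = 5). In wild type they were 0.278 ± 0.345 and 0.295 ± 0.352 (SD, n = 6). Both genes were read in the same libraries, so these SDs do not measure their order, which was not tested.

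**Figure D2:**
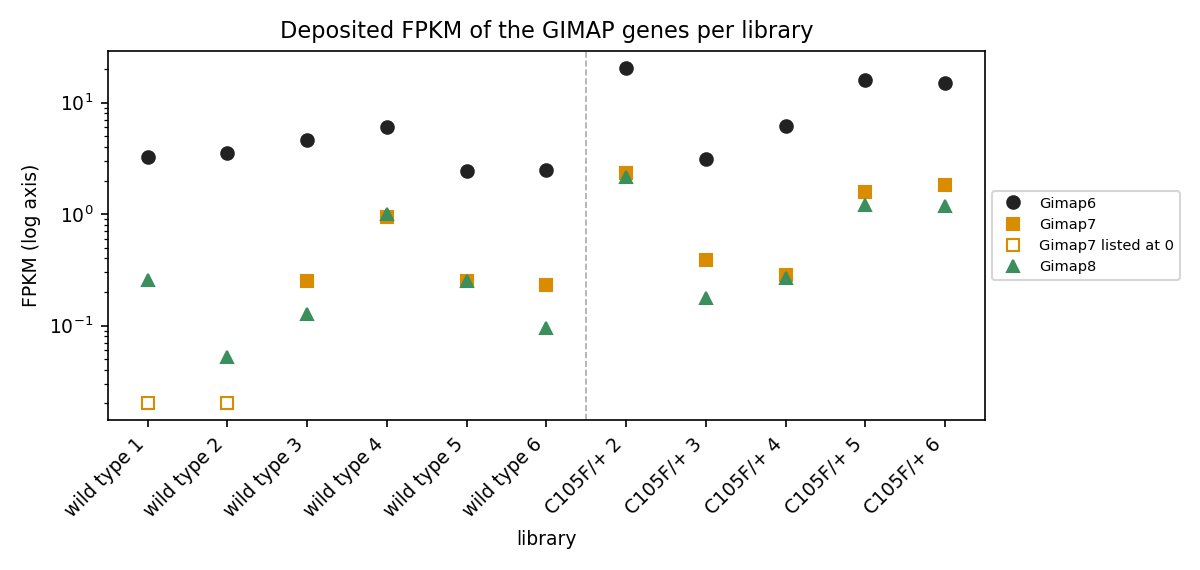
FPKM on a log axis of the 3 GIMAP genes in each library, wild type left and C105F/+ right of the dashed line, with open squares for the libraries in which Gimap7 is listed at 0. Gimap6 lies above Gimap7 and Gimap8 in all 11 libraries, and Gimap7 and Gimap8 lie close together in most.

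T cell transcripts were highest in C105F/+ 2, 5 and 6, the libraries with the highest GIMAP counts. Of 36 listed T cell genes 4 have rows: Cd2, an adhesion receptor, Cd28, a costimulatory receptor, Ctla4, its inhibitory counterpart, and Bcl11b, a transcription factor of T cell identity. All 4 had an edgeR adjusted p under 0.05 in the higher direction, against 52.6% of all rows tested. By the adjusted p in the authors' deposited table, 2 of 4 passed, against 29.8% of rows. The T cell receptor and CD3 genes on the list have no row and were not analysed here. The summed scaled counts of the 4 rows were 1351, 250, 449, 1042 and 919 in C105F/+ 2 to 6 and 155 to 227 in wild type. All C105F/+ sums lay above the wild type range, in rows kept for their difference. Taken singly, Cd2, Cd28 and Ctla4 overlapped between the groups, as did each GIMAP gene. Bcl11b did not overlap, against 10.1% of all rows that separated the groups in the higher direction. C105F/+ 2, 5 and 6 thus had the highest sums and C105F/+ 3 the lowest of its group, the order seen for Gimap6. Wild type 4 had 204, within the range of its group, although its Gimap7 and Gimap8 were the highest of that group.

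Set against these T cell transcripts, Gimap6 varied little among the C105F/+ libraries, and the same held against B cell transcripts. The ratio of Gimap6 to the summed T cell rows was 1.15, 1.11, 1.12, 1.19 and 1.30 in C105F/+ 2 to 6, while the Gimap6 count itself ranged from 278 to 1553. In wild type the ratio ran from 1.07 to 2.42, with a median of 1.79. On the log2 scale the mean ratio was 0.23 ± 0.09 (SD, n = 5) in C105F/+ and 0.72 ± 0.50 (SD, n = 6) in wild type. The difference of -0.49 did not pass the exact two-sided permutation test (p = 0.0844, adjusted p = 0.506 over 6 ratios), and 5 of 5 C105F/+ libraries lay below the wild type mean. All 5 also lay within the wild type range.

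For Gimap8 the ratio to the T cell rows was 0.273, 0.144, 0.112, 0.201 and 0.236 in C105F/+ 2 to 6 and ran from 0.0508 to 0.897 in wild type, with the highest value in wild type 4. The groups overlapped completely (log2 difference -0.15, exact permutation p = 0.846, adjusted p = 0.881). For Gimap7 the ratio was 0.103, 0.11, 0.0413, 0.0925 and 0.125 in C105F/+ 2 to 6 and 0 to 0.297 in wild type, where the 2 libraries without a read set the lower end. The group medians were 0.103 and 0.0869. Its log2 difference of 1.04 did not pass (exact permutation p = 0.383, adjusted p = 0.766), and it was 1.38 with a pseudocount of 0.5 and 0.11 with FPKM in place of scaled counts. A p that misses the threshold does not show that the ratios were equal.

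Endothelial transcripts followed a different order among the libraries. Of 28 listed endothelial genes 2 have rows, Cdh5, the cadherin of endothelial junctions, and Flt1, a VEGF receptor. Both had an edgeR adjusted p under 0.05 in the higher direction (52.6% of all rows tested did), and Flt1 also in the authors' deposited table (29.8% of rows did). Their sum was 1227, 569, 1230, 1690 and 1355 scaled counts in C105F/+ 2 to 6 and ran from 128 to 793 in wild type. C105F/+ 4 had as much as C105F/+ 2, whereas its Gimap6 was 503 against 1553 and its Gimap8 50.1 against 369. Wild type 4 had the fewest endothelial counts of all libraries, with 18.8 scaled counts of Cdh5 and 109 of Flt1, and the highest Gimap6, Gimap7 and Gimap8 of its group.

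The ratio of Gimap6 to the endothelial rows was 1.27, 0.488, 0.409, 0.736 and 0.88 in C105F/+ 2 to 6 and ran from 0.264 to 3.86 in wild type. All 5 C105F/+ libraries were inside the wild type range (log2 difference -0.16, exact permutation p = 0.855, adjusted p = 0.881). The value of 3.86 belongs to wild type 4, and without that library the log2 difference was 0.30. The log2 ratios of Gimap7 and Gimap8 to the endothelial rows differed by 1.37 and 0.18 (exact permutation p = 0.325 and 0.881, adjusted p = 0.766 and 0.881), also with all C105F/+ libraries inside the wild type range. With FPKM the difference of Gimap7 was 0.38 and that of Gimap8 -0.19, and with a pseudocount of 0.5 that of Gimap7 was 1.71.

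**Figure D3:**
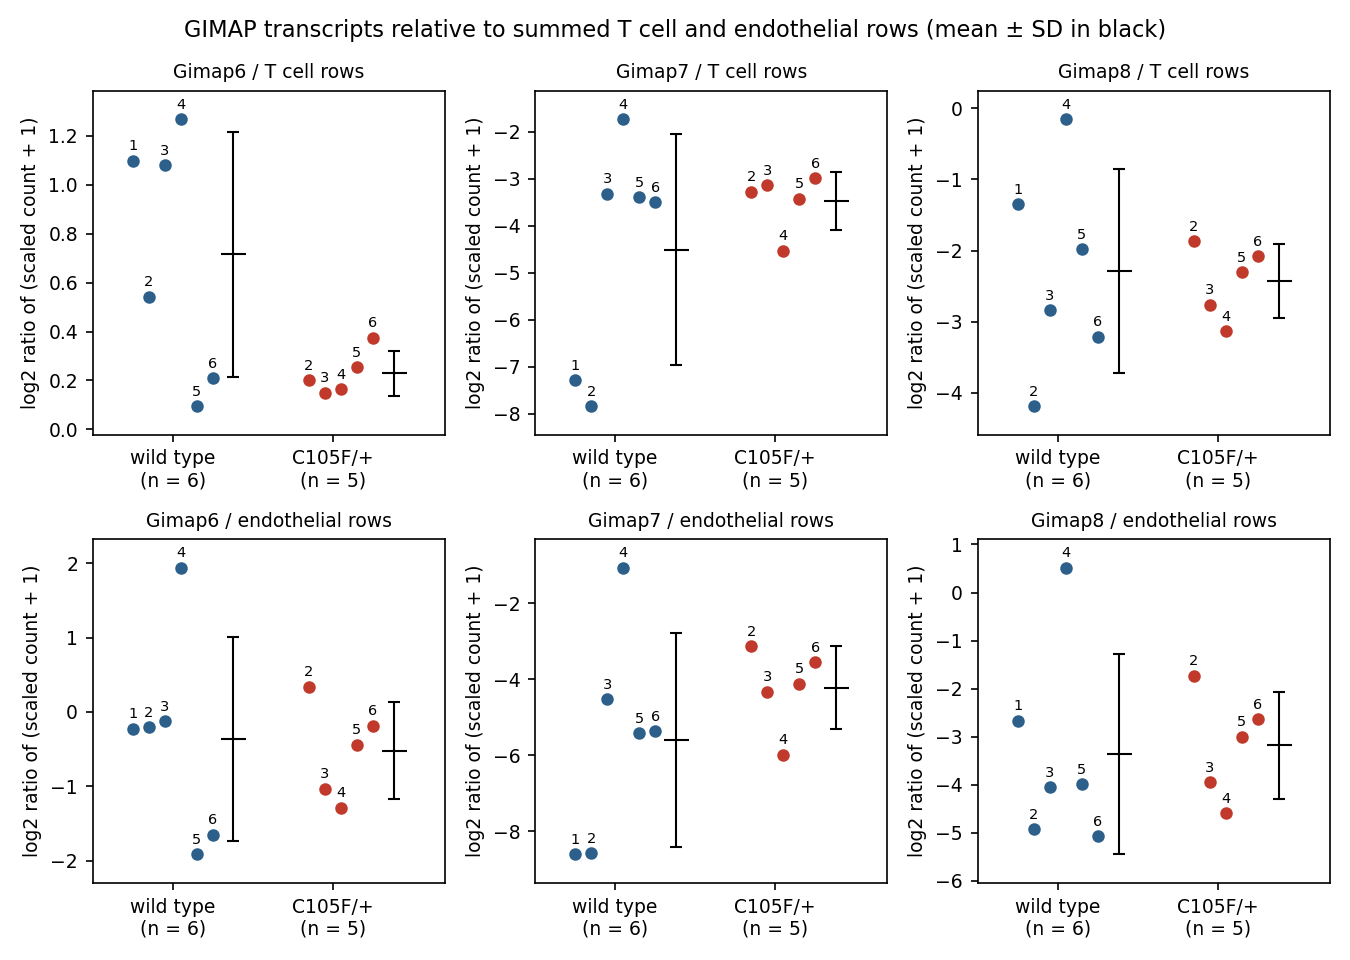
Log2 ratio of each GIMAP gene (scaled count + 1) to the summed T cell rows (upper panels) and endothelial rows (lower panels) in each library, with replicate numbers and the mean ± SD in black. The C105F/+ ratios of Gimap6 to T cell rows are tightly grouped (SD 0.09) while those in wild type are spread (SD 0.50), and wild type 4 has the highest ratio in every panel.

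Within wild type, none of the 6 relations between a GIMAP gene and a marker sum passed after adjustment. For Gimap6 and the T cell rows Pearson's r was 0.24 (exact permutation p = 0.7) and Spearman's rho 0.31 (p = 0.564), over 6 libraries whose T cell sums differed little. Without the 2 libraries farthest from the median sum, r was 0.84 over the 4 left. For Gimap6 and the endothelial rows r was -0.83 (exact permutation p = 0.0194, adjusted p = 0.117 over 6 relations) and rho -0.77 (p = 0.103, adjusted p = 0.617), and r was -0.68 without wild type 4 and 5. For Gimap8 r was -0.28 with T cell rows (exact permutation p = 0.596) and -0.64 with endothelial rows (p = 0.175), and rho was -0.26 for both (p = 0.658). For Gimap7 r was 0.24 with T cell rows (exact permutation p = 0.631) and -0.19 with endothelial rows (p = 0.781), and rho was 0.29 and -0.06 (p = 0.578 and 0.933). Without the same farthest libraries, r over the 4 left was 0.64 and -0.20 for Gimap8 and 0.64 and 0.81 for Gimap7. The sign turned for Gimap8 with T cell rows and for Gimap7 with endothelial rows, so these relations rest on the libraries left out. No relation was tested within the 5 C105F/+ libraries or over both groups together.

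**Figure D4:**
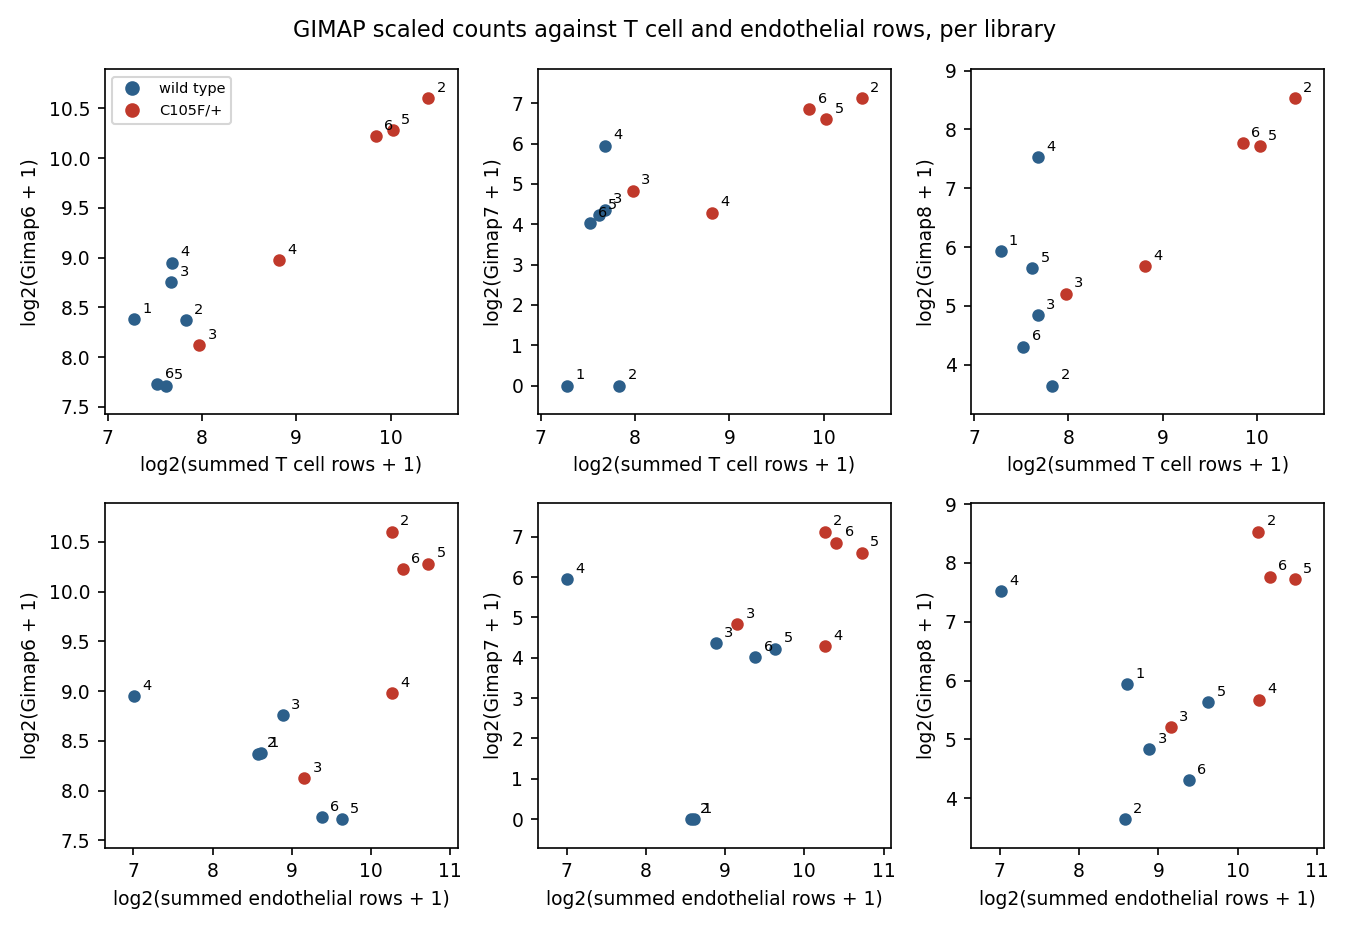
Log2(scaled count + 1) of each GIMAP gene (y axis) against log2(summed scaled count + 1) of the 4 T cell rows (upper) or the 2 endothelial rows (lower), 1 point per library, wild type in blue and C105F/+ in red. C105F/+ 2, 5 and 6 form the upper right of the T cell panels, and in the endothelial panels wild type 4 lies alone at the lowest endothelial sum.

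The rows whose pattern was most like each gene differed between the 3 members. Likeness was Pearson's r of log2(scaled count + 1) over 11 libraries after each group's mean was subtracted, among 320 other rows, and is a description of libraries that share depth and cell make-up. For Gimap6 the nearest rows were Prg2, the major basic protein of eosinophil granules (r = 0.95), Lrg1, a secreted leucine-rich glycoprotein (0.95), Ikzf3, a lymphocyte transcription factor (0.92), Ear1, an eosinophil ribonuclease (0.91), and Fcrla, an Fc receptor-like protein of B cells (0.91). The r of Gimap6 with Cd2 was 0.88, with Cd28 0.64, with Ctla4 0.57 and with Bcl11b 0.13. With Flt1 it was 0.07 and with Cdh5 -0.08. With wild type 4 left out, the values were 0.86 for Cd28, 0.25 for Flt1 and 0.40 for Cdh5. The group means subtracted there still included wild type 4, so the remaining wild type libraries were not centred anew.

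For Gimap8 the nearest rows were Gpr174, a lymphocyte receptor for lysophosphatidylserine (0.97), Il2rb, a chain of the receptor for interleukins 2 and 15 (0.96), Ehd3, a protein of endosomal membranes (0.94), Layn, a hyaluronan receptor (0.93), and Cxcr2, a chemokine receptor of neutrophils (0.91). Il2rb had 517, 20.9, 62.1, 282 and 300 scaled counts in C105F/+ 2 to 6 and 13.4 to 231 in wild type. Like Gimap8, it was lowest of wild type in library 2 and highest in library 4. Layn differed in that its mean was lower in C105F/+ (8.65 ± 8.86 against 38.7 ± 43.5, edgeR adjusted p = 0.0552), so the likeness concerns the order of libraries inside each group only. Among T cell rows the r of Gimap8 was 0.80 with Cd2, 0.30 with Cd28, 0.24 with Ctla4 and 0.07 with Bcl11b, and with Cdh5 it was -0.36. With wild type 4 left out, but still part of the group mean that was subtracted, these values were 0.78, 0.70, 0.52, -0.11 and 0.38.

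For Gimap7 the nearest rows were Stac2 (0.89), an adaptor with an SH3 domain, Kcnmb4 (0.88), a subunit of calcium-activated potassium channels, Lmbrd2 (0.82), Sorcs2 (0.80), a sorting receptor, and Med12l (0.77), a Mediator subunit. Stac2, Kcnmb4 and Sorcs2 each had 0 counts in wild type 1, one of the libraries in which Gimap7 had none. The T cell factor Bcl11b, with 0 counts in the same library, followed at rank 8 (0.74). Gimap7 was less like the other members, with r of 0.60 for Gimap8 and 0.38 for Gimap6, than Gimap6 and Gimap8 were to each other (0.74). These differences between coefficients were not tested.

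**Figure D5:**
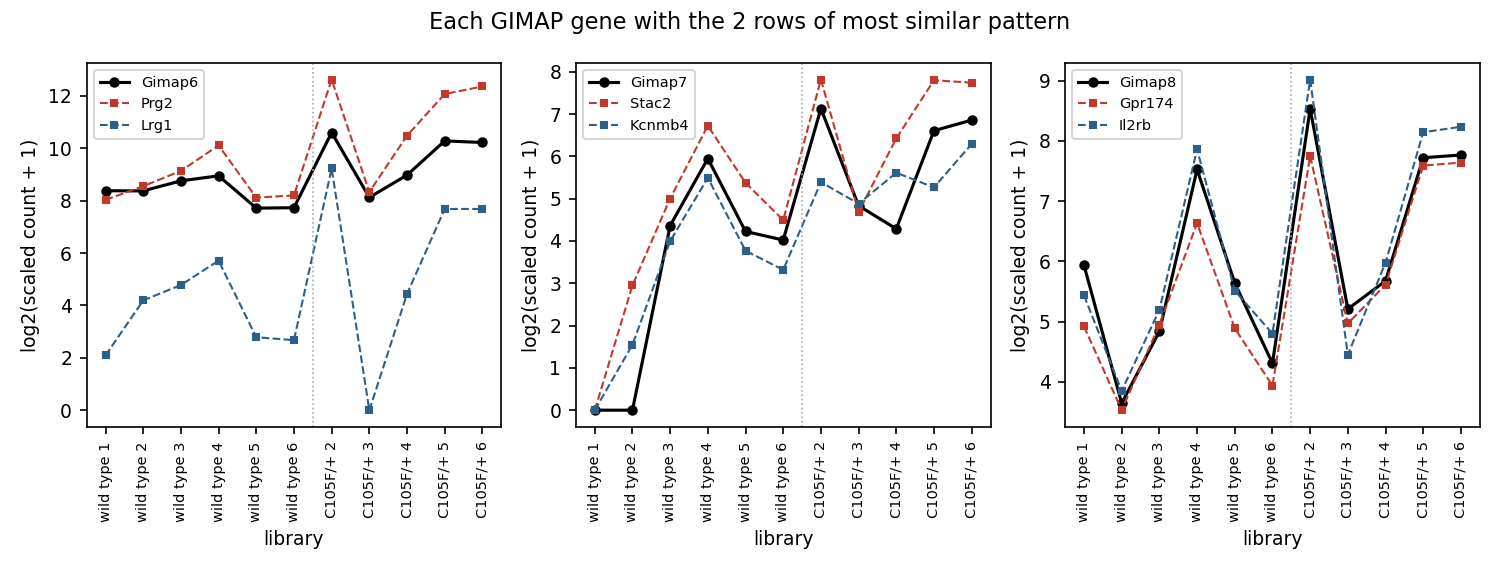
Log2(scaled count + 1) in each library for Gimap6, Gimap7 and Gimap8 (black) with the 2 rows of highest group-centred correlation (dashed), wild type left and C105F/+ right of the dotted line. Gimap8, Gpr174 and Il2rb rise and dip in the same libraries, and Gimap7 and Kcnmb4 are both at 0 in wild type 1.

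Summed markers of other lymphocytes moved with Gimap6 and Gimap8 among the C105F/+ libraries, and their part in the result was not tested. For Gimap7 the likeness differed by row, with a group-centred r of 0.06 for Fcrla and 0.67 for Il2rb. Of 18 B cell genes 8 have rows, all 8 with an edgeR adjusted p under 0.05 in the higher direction against 52.6% of all rows tested. By the adjusted p in the authors' deposited table, 4 of 8 passed, against 29.8% of rows. The B cell sum was 2112 to 13555 scaled counts in C105F/+ and 1710 to 5721 in wild type, the maximum again in wild type 4. Of 17 NK cell genes 5 have rows, with sums of 55 to 973 in C105F/+ and 53.8 to 281 in wild type, again highest in wild type 4. Il2rb alone gave 231 of the 281 in wild type 4, so that maximum rests mostly on 1 row. Of the 4 NK cell rows tested by edgeR 3 passed in the higher direction, beside the same 52.6%. By the adjusted p in the authors' deposited table, 1 of these 4 passed, against 29.8% of rows. Ncr1, the receptor that defines NK cells, had 0 counts in C105F/+ 3 and in wild type 1 to 5. In C105F/+ both sums were lowest in replicate 3, where Gimap6 and Gimap8 were lowest too. The ratio of Gimap6 to the B cell sum also varied little there, at 0.115, 0.132, 0.12, 0.106 and 0.111 in C105F/+ 2 to 6, and it ran from 0.0862 to 0.227 in wild type. The ratio of Gimap6 to the NK cell sum was 1.60, 5.05, 3.61, 2.12 and 2.03 in C105F/+ 2 to 6 and ran from 1.76 to 6.14 in wild type.

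Genes that act around the GIMAP proteins were thinly represented. None of the 16 listed autophagy genes has a row, so the partners of Gimap6 were not analysed here. Of 17 BCL2 family genes, the anti-apoptotic copies Bcl2a1a and Bcl2a1b have rows, which share near-identical sequence and may share reads. Both fell by edgeR (log2 -1.17 and -1.07, adjusted p = 0.0318 and 0.0393), beside 70 of 321 rows called lower. Bcl2a1a also fell in the authors' deposited table (adjusted p = 0.0294). Of the rows with an adjusted p there, 37.6% passed in either direction and 29.8% in the higher direction. Wild type 4 held the highest Bcl2a1a, 18737 scaled counts where the rest of its group had 5123 to 8253. Without that library the C105F/+ to wild type ratios of Bcl2a1a and Bcl2a1b were 0.576 and 0.613, against 0.446 and 0.477 with it. Among genes of resting lymphocytes, Klf2, a factor that maintains quiescence, had group means of 8119 ± 2369 (C105F/+) and 4006 ± 2076 (wild type), a difference that did not pass (edgeR adjusted p = 0.0656). Klf2 was lowest of all libraries in wild type 4, at 388.5 scaled counts, where Gimap6, Gimap7 and Gimap8 were the highest of their group.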

How the data were processed

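RNA of spleen dendritic cell preparations was sequenced from oligo(dT)-selected, directional libraries, per the labels' protocols. The submitters' processing notes name the build mm10 and, without roles or settings, HISAT2 2.1.0 and Bowtie2 2.3.4.1 besides StringTie 2.1.3b, Trimmomatic 0.38, FastQC 0.11.7 and DESeq2. The authors deposited 1 table with raw read counts, FPKM and log2 normalized values per library, per the file headers (which transformation made the log2 values is not stated). The signed fold change is a score made by the authors, like the test score beside it, and the mean over libraries is a signal value they deposited (counts over size factors). The p-value and adjusted p-value are the authors' own.

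The size factors were recovered by least squares from the deposited means (largest relative error 1.93e-14). edgeR's quasi-likelihood test (version 4.0.16, under R 4.3.3) was run with these factors on the 321 rows that its filterByExpr filter kept. Benjamini-Hochberg adjusted p-values were taken over those 321 rows only. The code was first run on simulated counts without any selection of rows, which does not show how reliable the calls are here. Single values were tested by exact two-sided permutation over 462 assignments (smallest p 0.0022) with a pseudocount of 1. DESeq2 1.42.0, limma 3.58.1, other scalings, filters, pseudocounts, a replicate block and the removal of each library were alternatives. Low read numbers limit precision, and the limit of 3 reads for a count of 0 covers counting error only.

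The members and lists were chosen with earlier results of these data known. Genes named are the 3 members, the rows of the T cell, endothelial, resting lymphocyte, autophagy and BCL2 lists (1 row of these is not reported here), and the 5 rows most like each member. Itgae, Pacsin1, Il2rb, Layn and Ncr1 were singled out further after their values were seen, as were the ratios of Gimap6 to the B cell and NK cell sums, and the promoter motifs were chosen as common core motifs.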

Additional observations from a re-analysis of the deposited data

Results flagged for a closer look

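Single libraries lay far from the rest of their group in 3 of the checked sets of values, where the gap to the next library took up more of the group's range than Dixon's 95% critical value allows. In wild type 4 the Gimap7 scaled count was 60.7, and 0 to 19.6 in the rest of its group. In the same library the Gimap8 scaled count was 183.3, against 11.5 to 60.2. In C105F/+ 4 the log2 ratio of Gimap7 to the T cell rows was -4.53, against -3.42 to -2.99 in the other C105F/+ libraries, and it rests on 17 reads of Gimap7. Chance flags about 1 in 20 groups, and 22 groups were checked.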

How the results depend on the processing

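Gimap6, Gimap7 and Gimap8 kept a higher mean in C105F/+ in all 63 alternative fits of their difference, but the calls moved. Scaling on the selected rows shifted the median log2 fold change of all rows by -0.96 (edgeR TMM) and -0.76 (DESeq2 size factors). Relative to that median, Gimap6 stood 0.29 and 0.24 higher (0.40 with the recovered factors), Gimap7 0.89 and 0.74 (0.94) and Gimap8 0.40 and 0.26 (0.48). Under these scalings the Gimap6 log2 fold change was 0.44 (edgeR adjusted p = 0.414) and 0.60 (0.205), so the call was lost, and the table had 114 calls (8 higher, 106 lower) and 103 calls (12 higher, 91 lower), against 239 (169 higher, 70 lower). With library totals implied by FPKM, which moved the median by 0.17, the split was 193 higher and 45 lower, and Gimap8 passed (1.76, adjusted p = 0.0482). By DESeq2, 377 of 417 rows passed, among them Gimap7 (2.07, adjusted p = 0.0403) and Gimap8 (1.60, adjusted p = 0.0398). Gimap7 also passed by limma on the deposited log2 values (0.66, adjusted p = 0.0332), on log2(FPKM + 1) (0.77, 0.035) and on log2(FPKM + 0.1) (1.98, 0.0283). Adjusted p-values of all these fits were taken only over rows kept for an unadjusted p up to 0.0493. With log2 fold changes of 2.07 and 1.60, the authors' deposited adjusted p was 0.233 for Gimap7 and 0.203 for Gimap8. A pass within the selected rows therefore does not show that the gene would pass among all genes. The cause of these changes was not tested.

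Same-numbered libraries of the 2 groups did not deviate alike from their group means (r of deviations -0.09 to 0.12). Such values cannot show whether those libraries were handled together. With the replicate number as a block over replicates 2 to 6, edgeR called 0 rows at an adjusted p under 0.05 and 166 at an unadjusted p under 0.05, and Gimap6 had a log2 fold change of 1.38 (adjusted p = 0.0929). The same libraries without the block, an alternative chosen after seeing the data, gave 171 calls. Leaving out 1 library at a time gave 11 to 280 calls (11, 13 and 17 without C105F/+ 2, 5 and 6) and log2 fold changes of 1.27 to 1.75 for Gimap6, 1.75 to 2.87 for Gimap7 and 1.13 to 2.41 for Gimap8.

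None of the 84 alternatives for the ratios and none of the 54 for the wild type relations had an adjusted p under 0.05. Without 1 library the log2 difference in ratio ran from -0.61 to -0.38 for Gimap6 to T cell rows, -0.47 to 0.30 for Gimap6 to endothelial rows, 0.37 to 1.59 and 0.77 to 2.27 for Gimap7, -0.53 to 0.28 for Gimap8 to T cell rows and -0.18 to 0.96 for Gimap8 to endothelial rows. With FPKM the last was -0.19, and Gimap7 had 0.11 and 0.38. Pearson's r without 1 wild type library ran from -0.64 to 0.95 for Gimap7 with T cell rows, -0.36 to 0.80 for Gimap7 with endothelial rows, -0.74 to 0.12 for Gimap8 with T cell rows (0.49 with FPKM) and -0.84 to 0.21 for Gimap8 with endothelial rows. Read numbers limit Gimap7 most, with 0 to 58 reads in wild type.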
